A study of Mus musculus with 12 samples.

Results

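DNA methylation was measured at the genes of the methylation machinery itself. They are Dnmt1, Uhrf1, Dnmt3a, Dnmt3b, Dnmt3l, Tet1, Tet2, Tet3, Tdg and Zfp57. The genes were chosen by name and found by their Ensembl identifiers. They are 10 of the 30073 genes with a level in the deposited files. Each gene carried 1 level for each of its parts, which were the promoter, the 5′ untranslated region (UTR), the exons, the introns and the 3′ UTR. In all there were 44 such gene parts, and 42 of them had a level in all 12 libraries. The exceptions were the 3′ UTR of Uhrf1, with a level in 1 library, and the 5′ UTR of Zfp57, with a level in 11. Parts of a gene may share CpGs, so counts of parts are not counts of independent measurements.

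The 12 libraries fell into 6 groups of 2, all of the C57BL6 strain. ESCs were a female embryonic stem cell line from fertilized embryos, and pESCs were a parthenogenetic line from oocytes activated without sperm. By the study's methods both carried an Actin-GFP transgene. Both lines were established in serum and LIF on feeder cells, then kept with LIF and inhibitors for some passages before induction. The paper does not say which medium the ESC and pESC libraries came from. Primordial germ cells (PGCs), the embryonic precursors of eggs and sperm, were isolated from female embryos 9.5 (E9.5) or 12.5 (E12.5) days old. They were purified by the surface markers CD61 and SSEA1, or by SSEA1 alone on magnetic beads. ESC-PGCLCs and pESC-PGCLCs were germ cell-like cells made in culture from the corresponding line. That line was treated with KSR, bFGF and Activin A for 2 days, which gives epiblast-like cells, and then with BMP4, SCF, EGF and LIF for 4 days. The files hold no expression, so the labelled cell types could not be checked against marker genes. The labels do not say whether libraries of a group came from separate cultures or embryos, so the p-values measure the spread between these libraries only.

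Libraries were made by reduced representation bisulfite sequencing (RRBS), in which the enzyme MspI cuts at CCGG and bisulfite separates methylated from unmethylated cytosine. A level is the share of CpG calls read as methylated, printed here in percent, and differences between levels are in percentage points. Each library held levels for 144375 to 166476 features of all kinds. The reads behind each level are unknown, so no counting interval can be given. The ESC libraries were the least alike: 24.5% of the 133311 features in every library differed by at least 10 points between them, against 2.99% to 6.78% in the other groups. In 7 of the 42 member gene parts they differed by that much, and replicate 1 was the higher library in all 7. A level averages all cells of a library, so a mixture of methylated and unmethylated cells cannot be told apart from partial methylation in every cell.

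Dnmt1 copies methylation onto the new DNA strand after replication, and Uhrf1 recruits it to half-methylated sites. Dnmt3a and Dnmt3b set new methylation, and Dnmt3l is their partner without enzyme activity of its own. The Tet enzymes oxidize methylcytosine, and Tdg, a DNA glycosylase, cuts out the most oxidized forms, which leads to an unmethylated cytosine. Zfp57 is a zinc finger protein that binds methylated imprinting control regions and helps to keep them methylated. Migrating and gonadal PGCs lose most of their DNA methylation, imprints included.

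The sequences below come from regions that the results describe. The files hold no level for a single CpG, so no position within them can be tied to a difference. They were read from the RefSeq genome GRCm38.p6, the assembly behind the mm10 build used by the submitters, and are written 5′ to 3′ on the strand of the gene. In the first 3, which run between neighbouring MspI sites, capitals mark CCGG. In the 2 promoter sequences capitals mark CG. The Zfp57 fragment, chr17:37009597-37009789, lies in the last coding exon and is bounded by the only 2 CCGG sites in the coding sequence of the gene; it holds 9 CpGs. The Dnmt3b shore fragment, chr2:153647973-153648048, is bounded by the only 2 CCGG sites of the shore upstream of the Dnmt3b CpG island and holds 3 CpGs. The Tet3 fragment, chr6:83368132-83368426 on the minus strand, lies in a CpG island within the last coding exon and holds 17 CpGs. The Dnmt3b promoter sequence, chr2:153649199-153649448, is the 250 bases before the start, lies mostly in the island described next and holds 21 CpGs. The Dnmt3l sequence, chr10:78042137-78042286, is the 150 bases before the upstream start in the RefSeq promoter table and holds 4 CpGs and no CCGG.
Zfp57 last coding exon: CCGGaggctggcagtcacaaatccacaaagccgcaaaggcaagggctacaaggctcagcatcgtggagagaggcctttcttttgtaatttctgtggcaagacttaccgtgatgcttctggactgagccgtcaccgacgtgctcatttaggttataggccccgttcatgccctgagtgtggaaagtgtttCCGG
Dnmt3b upstream shore: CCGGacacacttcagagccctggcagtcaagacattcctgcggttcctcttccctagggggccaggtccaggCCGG
Tet3 last coding exon: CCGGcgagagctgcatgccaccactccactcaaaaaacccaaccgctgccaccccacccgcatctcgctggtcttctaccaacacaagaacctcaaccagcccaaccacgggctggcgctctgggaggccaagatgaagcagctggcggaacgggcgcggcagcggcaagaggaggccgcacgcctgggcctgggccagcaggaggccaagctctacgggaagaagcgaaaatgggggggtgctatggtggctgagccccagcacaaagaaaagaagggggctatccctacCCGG
Dnmt3b promoter: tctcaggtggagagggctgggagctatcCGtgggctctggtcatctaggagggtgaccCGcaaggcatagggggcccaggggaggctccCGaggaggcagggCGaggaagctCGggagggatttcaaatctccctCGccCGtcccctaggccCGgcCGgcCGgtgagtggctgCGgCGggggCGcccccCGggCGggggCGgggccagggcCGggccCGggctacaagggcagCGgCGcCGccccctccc
Dnmt3l promoter: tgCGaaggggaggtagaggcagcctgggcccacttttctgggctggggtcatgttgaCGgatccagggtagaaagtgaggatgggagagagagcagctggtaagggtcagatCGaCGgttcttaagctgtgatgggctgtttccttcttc

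The 5′ UTRs and start islands of most members were nearly unmethylated in every library. Of the 10 promoters, 5 stayed under 10% in all 12 libraries (Uhrf1, Tet1, Tet2, Tet3 and Zfp57), with levels from 1.04% to 7.77%. The others reached higher levels in at least 1 library: Dnmt3a ranged from 15.9% to 42.9%, Tdg from 8.86% to 22.6% and Dnmt3b from 1.23% to 16.3%. Dnmt1 had group means from 10.2% in ESCs to 19.5% in E9.5 PGCs, and Dnmt3l lay above them all. Of the 8 measured 5′ UTRs, 7 stayed under 10% as well, between 0.852% and 5.93%. The exception was the 5′ UTR of Tet3, at 22.5% and 14.3% in E9.5 PGCs and between 4.83% and 13.4% in the other libraries. The CpG islands at the starts were low as well. The Dnmt1 island at chr9:20952561-20953008 ranged from 1.34% to 2.46% and the Uhrf1 island at chr17:56303225-56304503 from 1.21% to 2.39%. The islands of Dnmt3b (chr2:153649288-153649930), Tet2 (chr3:133544132-133545117), Tdg (chr10:82629706-82630318) and Zfp57 (chr17:37002646-37003006) had maxima of 2.18%, 1.88%, 1.67% and 2.28%. For Tet1 (chr10:62886789-62887349) the maximum was 2.78%. The pair of Dnmt3a islands (chr12:3806274-3808370 and chr12:3891227-3891634) reached 2.35% and 5.09%. Both Tet3 start islands stayed low too, with maxima of 2.39% at chr6:83455857-83457263 and 6.37% at chr6:83441467-83441729. An island within Dnmt3l, chr10:78043412-78043683, had levels of 1.14% to 6.19% in the 7 libraries that measured it. It holds none of the Dnmt3l starts in the RefSeq promoter table, so it is not counted as a start island. The shore that spans the upstream start, chr10:78041410-78043410, ranged from 22.9% to 70.9%.

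The Dnmt3l promoter was the most methylated of the 10 in every group. It stood at 64.3% and 64.9% in E9.5 PGCs and 49.5% and 44.7% by E12.5, 56.8% and 58.1% in ESC-PGCLCs against 58.6% and 41.0% in ESCs, and 51.7% and 50.2% in pESC-PGCLCs against 50.0% and 44.5% in pESCs. In the 6 groups, 83.3% to 91.0% of all promoters with a level in all 12 libraries had a lower group mean. Its 3 starts in the RefSeq table (windows of 300 bases, 250 before and 50 after the start) held 6, 4 and 3 CpGs and no CCGG on either strand, while 52.8% of all 32851 windows held CCGG. In 9 of the 10 members at least 1 window held CCGG, and the Tet2 window held 57 CpGs against a median of 7 over all windows. The Dnmt3l start overlaps Aire, a gene on the opposite strand, so levels there belong to both genes.

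**Figure D1:**
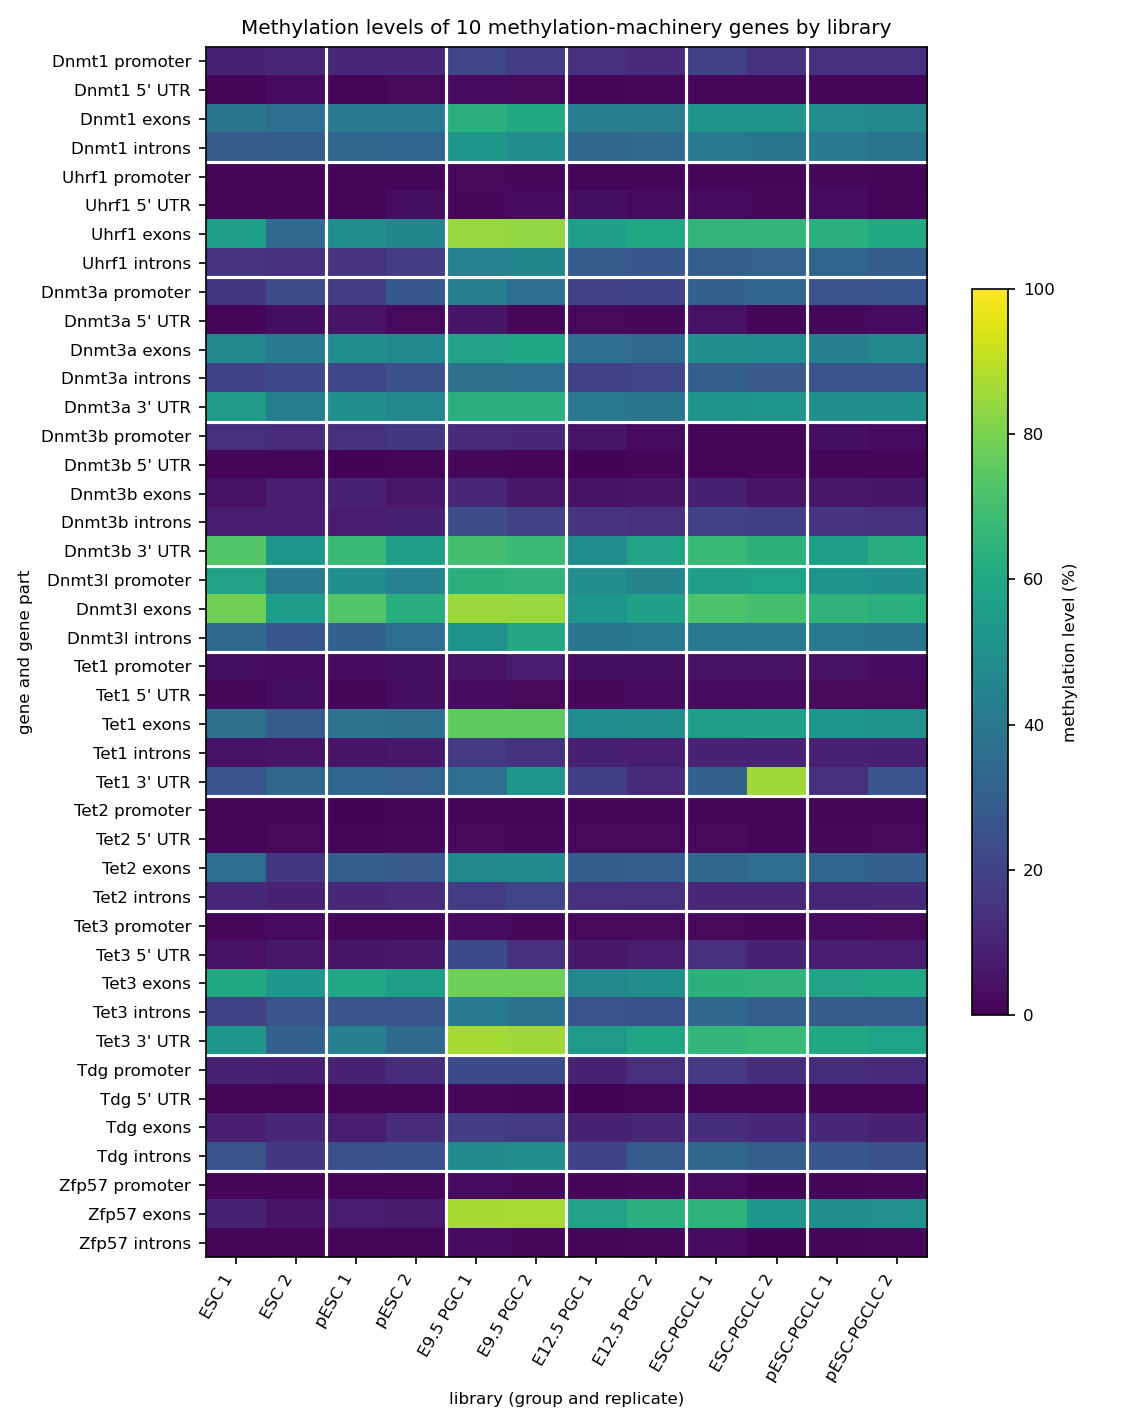
Methylation level (percent, colour) of the 42 gene parts with a level in every library, in rows by gene and part, against the 12 libraries in columns. Promoters and 5′ UTRs are dark in every column except at Dnmt3l and, to a lesser degree, the promoters of Dnmt3a, Dnmt1, Tdg and Dnmt3b and the 5′ UTR of Tet3, while exons and introns are brightest in the 2 E9.5 PGC columns.

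Inside the genes, methylation was mostly highest in E9.5 PGCs, as it was over all genes. Both E9.5 PGC libraries lay above the other 10 libraries in 26 of 42 gene parts, against 51% of the 133311 features in every library. Over all genes, the mean exon level was 33.5% in E9.5 PGCs and 19.5% to 26.2% in the other groups. The mean intron level over all genes was 42.2% against 26.3% to 33.4%. By group mean, 36 of the 42 parts were highest in E9.5 PGCs, 22 were lowest in ESCs and 14 were lowest in E12.5 PGCs. No share over all features was taken for these counts by group mean. In the order of the 6 group means, 120 of the 210 neighbouring pairs of groups had overlapping libraries, so many neighbours in the order were not separated beyond their spread.

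For the maintenance genes the order was the same for exons. Dnmt1 (ENSMUSG00000004099, chr9:20907209-20959888) had exon levels of 63.6% and 60.7% in E9.5 PGCs and 42.8% and 41.9% by E12.5, 51.6% and 51.6% in ESC-PGCLCs against 39.4% and 36.3% in ESCs, and 48.2% and 46.1% in pESC-PGCLCs against 40.9% and 41.5% in pESCs. Uhrf1 (ENSMUSG00000001228, chr17:56303321-56323486) had 84.4% and 84.0%, 56.4% and 59.5%, 65.2% and 66.2%, 56.9% and 35.0%, 63.5% and 60.6%, and 49.0% and 45.6% in the same group order. The pair of PGCLC groups lay between E12.5 and E9.5 PGCs in both genes without overlap, and the ESC and pESC libraries overlapped in Uhrf1 and not in Dnmt1.

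Among the de novo enzymes, exon methylation differed widely between genes. Dnmt3a (ENSMUSG00000020661, chr12:3806007-3914443) had exon levels of 58.5% and 58.9% in E9.5 PGCs and 36.4% and 35.1% by E12.5, 49.8% and 48.6% in ESC-PGCLCs against 46.7% and 41.0% in ESCs, and 43.5% and 46.5% in pESC-PGCLCs against 48.9% and 46.8% in pESCs. Dnmt3l (ENSMUSG00000000730, chr10:78041947-78063622) had 84.9% and 84.6%, 52.4% and 57.4%, 71.6% and 70.4%, 78.6% and 55.7%, 65.0% and 63.6%, and 73.1% and 62.8% in that order. Unlike the maintenance genes, both were lowest in E12.5 PGCs. Dnmt3b (ENSMUSG00000027478, chr2:153649450-153687730) stayed between 4.43% and 11.5% in its exons in all 12 libraries, and no group stood apart. Its 3′ UTR was methylated, at 73.2% and 53.0% in ESCs and 70.3% and 68.1% in E9.5 PGCs.

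The Tet genes carried their methylation well inside the gene. Tet1 (ENSMUSG00000047146, chr10:62804570-62908996) had exon levels of 75.3% and 75.0% in E9.5 PGCs and 48.6% and 49.2% by E12.5, 56.3% and 57.4% in ESC-PGCLCs against 36.9% and 28.6% in ESCs, and 52.4% and 50.9% in pESC-PGCLCs against 37.9% and 36.8% in pESCs. Tet2 (ENSMUSG00000040943, chr3:133463679-133545139) had exon levels of 35.9% and 16.1% in ESCs, 46.8% and 47.4% in E9.5 PGCs, and 27.8% to 35.7% in the other groups. Tet3 (ENSMUSG00000034832, chr6:83362373-83459084) had 78.1% and 78.0% in E9.5 PGCs and 46.3% and 49.4% by E12.5, 64.3% and 64.9% in ESC-PGCLCs against 60.7% and 53.2% in ESCs, and 58.5% and 58.7% in pESC-PGCLCs against 59.8% and 56.5% in pESCs. So Tet1 and Tet2 were lowest in ESCs by group mean, and Tet3 in E12.5 PGCs. Tet3 also held 2 methylated CpG islands at its coding exons. The island in the last coding exon, chr6:83368002-83368474, whose fragment is printed above, ranged from 39.7% in ESC replicate 2 to 88.7% in E9.5 PGC replicate 1. The other, at chr6:83404466-83404724, ranged from 48.0% to 89.5%. The Tet1 3′ UTR was unsteady, at 31.1% and 85.7% in ESC-PGCLCs, and passed the test in no comparison.

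Tdg (ENSMUSG00000034674, chr10:82629828-82650799) had exon levels of 7.54% to 18.0% and more in its introns. Its introns stood at 47.3% and 49.9% in E9.5 PGCs and 20.6% and 28.3% by E12.5, 33.7% and 30.2% in ESC-PGCLCs against 25.7% and 15.9% in ESCs, and 27.1% and 24.8% in pESC-PGCLCs against 24.3% and 25.4% in pESCs. Only E9.5 PGCs and ESC-PGCLCs lay apart from all other groups there. Tdg overlaps Glt8d2 at its end, and levels in the overlap belong to both genes.

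**Figure D2:**
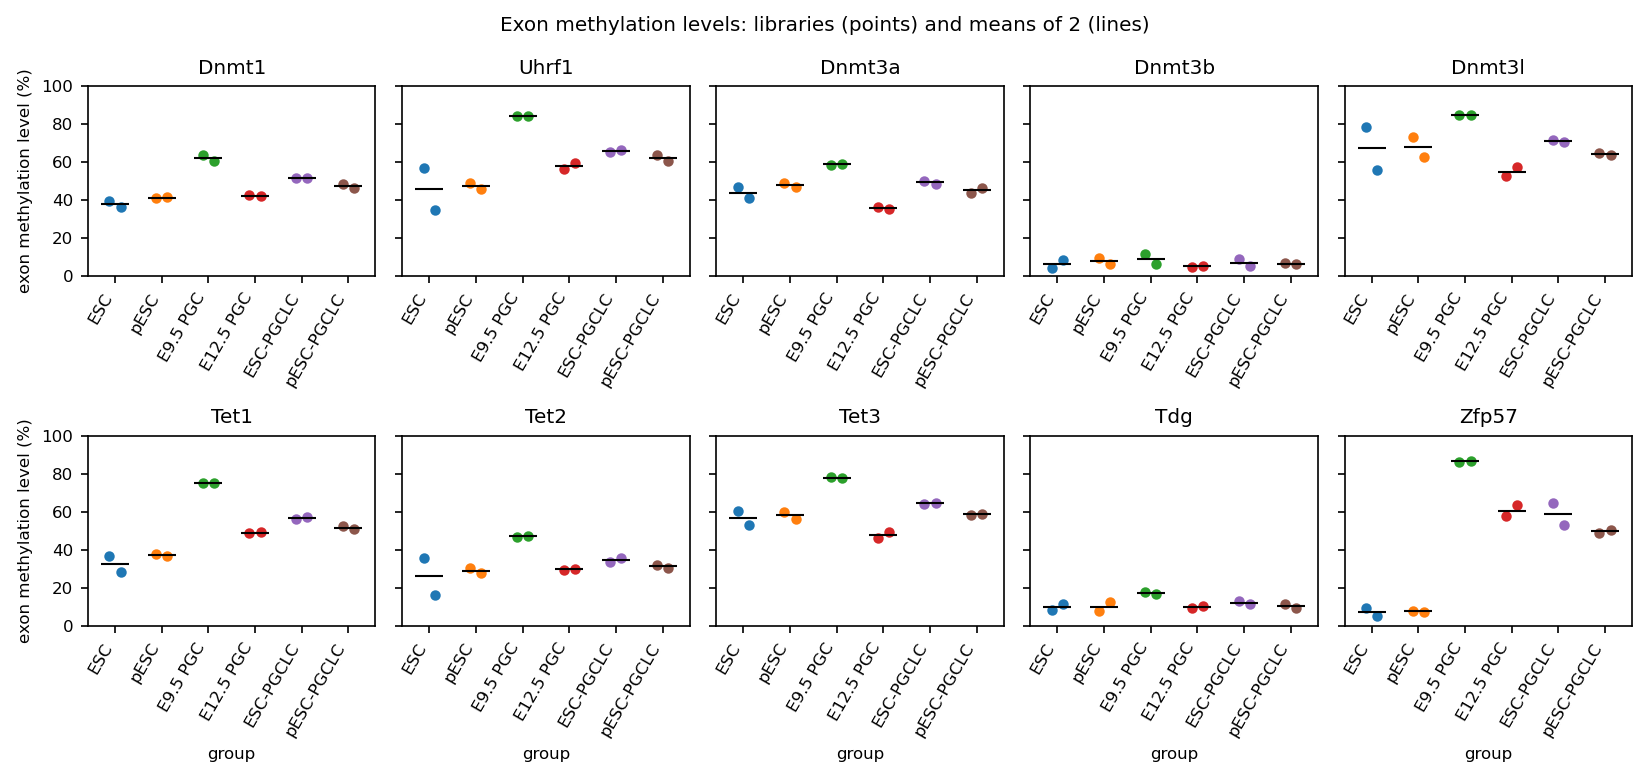
Exon methylation level (percent, vertical axis) of each of the 10 genes in the 6 groups; points are libraries and the line is the mean of 2. E9.5 PGCs are highest in every panel by mean, Dnmt3b and Tdg stay at or under 18.0%, and Zfp57 spans the widest range, from 7.35% in ESCs to 86.7% in E9.5 PGCs.

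Zfp57 (ENSMUSG00000036036, chr17:37001163-37010635) had the widest range of all 42 parts in its exons. The exon level was 9.45% and 5.26% in ESCs and 7.87% and 7.37% in pESCs. It was 86.5% and 86.9% in E9.5 PGCs and 57.6% and 63.4% in E12.5 PGCs. Among the PGCLCs it was 64.7% and 52.9% for the ESC origin, with 48.9% and 50.4% for the pESC origin. The 4 stem cell libraries thus lay far under all 8 germ cell and germ cell-like libraries, and ESC-PGCLCs and E12.5 PGCs overlapped. Among all exon values, 46.6% lay under Zfp57 in ESCs and 98.1% in E9.5 PGCs. Promoter and introns of Zfp57 did not share this range and stayed between 1.04% and 3.01% in every library. Their levels were nearly equal to each other in each library, as in pESC replicate 1 (1.68% and 1.69%). In ESC-PGCLC replicate 2 the promoter, the introns and the start island all stood at 1.04%. Whether they rest on the same CpGs was not tested, so they may not be separate readings. The intron level may therefore not describe introns away from the start. Of the 11 CCGG sites in the gene, 4 lay in exons, and the 2 in the coding sequence bound the fragment printed above.

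The first comparison asked what changed in PGCs between E9.5 and E12.5. Methylation fell in 21 of the 42 member parts and rose in none, and each of the 10 genes had at least 1 part that fell (limma, adjusted p under 0.05 and at least 10 points). Of all 137202 features tested, 49.6% were called, nearly all of them lower, so the members' share is close to the background. The median change of the members was -10.8 points and that of all features -11.5 points, or -0.86 in log2 odds. The largest fall was in Tet3 exons, from a mean of 78.0% to 47.8% (-1.91 in log2 odds, SE 0.101, adjusted p = 7.47e-05). Dnmt3l exons fell from 84.7% to 54.9%, Tet3 3′ UTR from 86.3% to 56.5%, Uhrf1 exons from 84.2% to 57.9%, Tet1 exons from 75.1% to 48.9% and Zfp57 exons from 86.7% to 60.5%. The other falls were in exons and introns of Dnmt1, the introns of Uhrf1, and the promoter, exons, introns and 3′ UTR of Dnmt3a. Also lower were the 3′ UTR of Dnmt3b, the promoter and introns of Dnmt3l, the exons of Tet2, the 5′ UTR and introns of Tet3, and the promoter and introns of Tdg. In all 21 the libraries of both stages did not overlap, against 74.2% of all features (68.9% with E12.5 PGCs lower). The 21 were picked by the test, so this gives no separate support. Exons of 8 of the 10 genes fell, where 47.6% of all exon values were called. The median exon level in E9.5 PGCs was 68.7% for the members and 23.8% for all genes. A fall of 10 points was therefore not equally open to both, and the shares are not directly comparable. The Dnmt3b promoter went from 12.2% and 11.5% to 5.72% and 2.79%, a difference of -7.63 points that was under the minimum size (adjusted p = 0.00697). The means of both coding islands of Tet3 were lower as well, from 88.5% to 56.3% and from 89.1% to 53.7%. These islands lie at coding exons and may share CpGs with the Tet3 parts above, so they are not added evidence. Of all CpG islands, 6.45% were called.

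The calls depended on the scale. Centring every library on its own median moved the median feature from -11.5 to 4.48 points, so centred values are on another scale and are not changes relative to all features. On that scale 16 of 42 parts were called, 10 higher and 6 lower, against 46.3% of all features, with 33.7% higher and 12.6% lower. The 6 lower parts were all among the 21 and comprised Uhrf1, Dnmt3l, Tet1, Tet3 and Zfp57 exons and the 3′ UTR of Tet3. Without 1 library, the calls of the Dnmt3b 3′ UTR and the Tet3 5′ UTR (E9.5 replicate 1) and of the Tdg promoter (E12.5 replicate 1) were lost. The Dnmt3b 3′ UTR call was also lost in the fit of all 12 libraries.

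The PGCLC groups were then compared with E9.5 PGCs. In ESC-PGCLCs 14 of 42 parts were lower and none higher, against 29.8% of all features called and 29.6% called lower. In pESC-PGCLCs 19 parts were lower and none higher, against 40.3% and 40.2%. Zfp57 exons showed the largest difference in both, with PGCLC means of 58.8% (ESC origin) and 49.7% (pESC origin) against 86.7% (adjusted p = 0.0015 and 0.000411). Uhrf1 exons were 65.7% and 62.0% against 84.2%, and Tet1 exons 56.8% and 51.7% against 75.1%. Dnmt1 exons were 51.6% and 47.2% against 62.2%. Dnmt3l exons and introns, Tet3 exons and 3′ UTR, Tet2 exons and Tdg introns were lower in both PGCLC groups as well. The Dnmt3b promoter was called in ESC-PGCLCs alone, at 1.55% against 11.9%, and its pESC-PGCLC mean of 3.36% missed the minimum size. The Dnmt3b upstream shore stood at 41.7% and 35.1% in E9.5 PGCs and had no level in ESC-PGCLCs. A promoter difference at the same CpGs was therefore not tested. After centring, 2 parts were called in ESC-PGCLCs, 1 higher and 1 lower, against 21.6% of all features (17.1% higher and 4.44% lower). In pESC-PGCLCs 14 were called, 9 higher and 5 lower, against 35.7% (27.2% higher and 8.46% lower). The median feature then stood at 5.12 and 4.58 points. Zfp57 exons were lower in both. Without E9.5 replicate 1, 3 calls in ESC-PGCLCs (Dnmt1 exons and introns and the Dnmt3b promoter) and 4 in pESC-PGCLCs (Dnmt1 and Tet3 introns, the Dnmt3a promoter and the Tet3 5′ UTR) were lost. In ESC-PGCLCs, Tdg introns were lost without E9.5 replicate 2, Dnmt3l introns without ESC-PGCLC replicate 1, and Dnmt1 and Tdg introns without ESC-PGCLC replicate 2. In pESC-PGCLCs the Tet3 5′ UTR was lost without either pESC-PGCLC library and Dnmt1 introns without replicate 2. The fit of all 12 libraries lost the Dnmt3a 3′ UTR and the exons of Dnmt3l and Tet2 in ESC-PGCLCs, and the Dnmt3l promoter and Tet2 exons in pESC-PGCLCs.

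Compared with E12.5 PGCs, ESC-PGCLCs were higher in 8 of 42 parts and lower in none, against 22.8% of all features called and 22.2% called higher. Tet3 exons (64.6% against 47.8%, adjusted p = 0.0029) and Dnmt3l exons (71.0% against 54.9%, adjusted p = 0.00382) differed most. The others were the exons, promoter and 3′ UTR of Dnmt3a, the 3′ UTR of Dnmt3b, the promoter of Dnmt3l and the 3′ UTR of Tet3. In pESC-PGCLCs 1 part was higher, Tet3 exons (58.6% against 47.8%, adjusted p = 0.0227), against 7.1% of all features called and 6.81% called higher. That call was lost when any 1 of the 4 libraries was left out. Without ESC-PGCLC replicate 2 the count of 8 became 5. Calls of the Dnmt3b and Tet3 3′ UTRs and the Dnmt3l promoter were each lost without at least 1 library. After centring, Dnmt3l and Tet3 exons were the 2 parts called in ESC-PGCLCs, against 5.97% of all features, and none was in pESC-PGCLCs, against 0.828%. The fit of all 12 libraries called Dnmt3a and Tet3 exons in ESC-PGCLCs and lost the other 6, Dnmt3l exons among them, and it called none in pESC-PGCLCs.

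**Figure D3:**
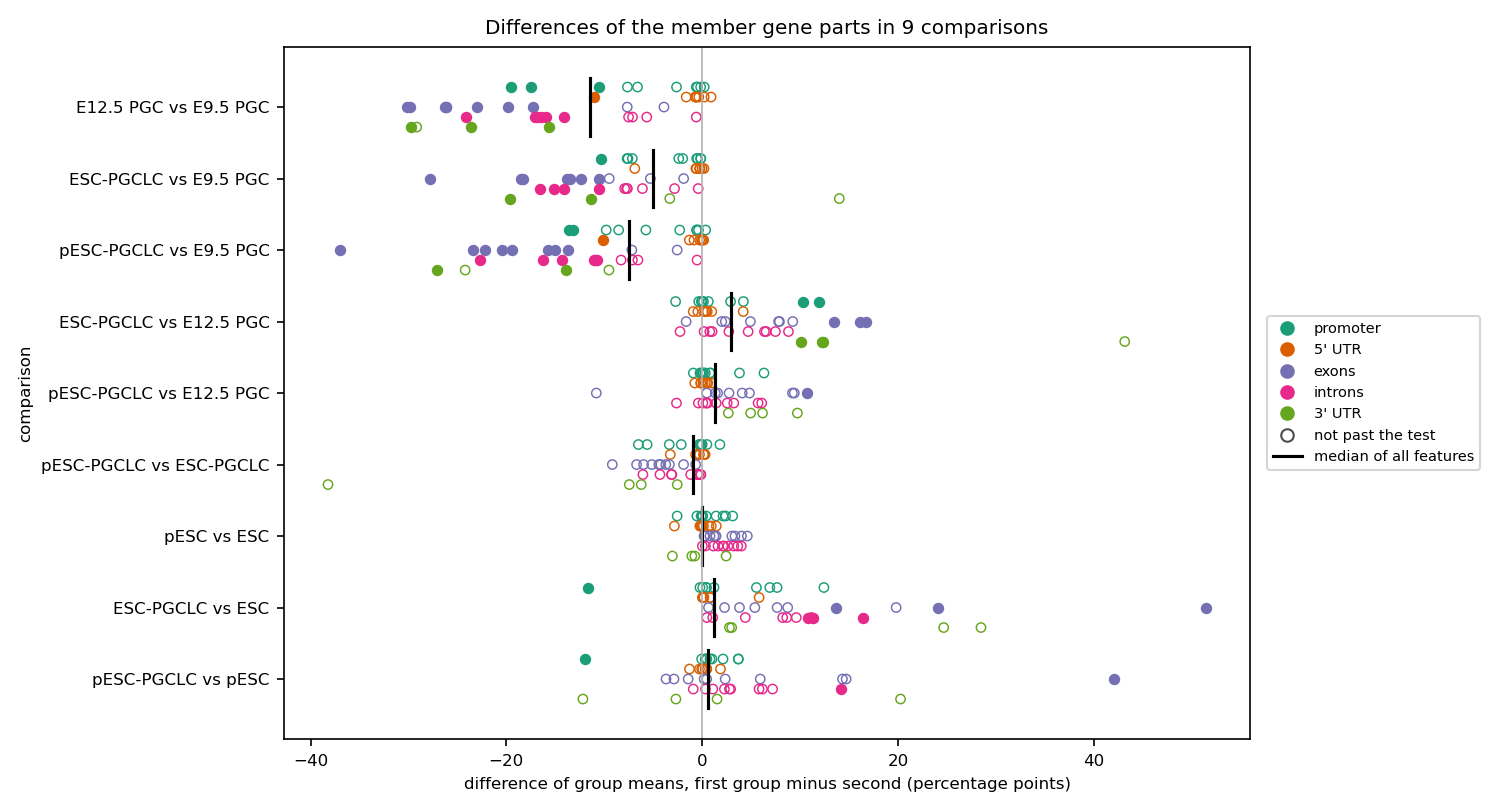
Difference of group means in percentage points (horizontal axis) of each member gene part in 9 comparisons (vertical axis); filled points passed the test and the minimum of 10 points, open points did not, colours give the gene part and the black bar is the median of all features. Differences from E9.5 PGCs lie mostly left of 0, and on induction Zfp57 exons stand farthest right (51.5 and 42.0 points) and the Dnmt3b promoter is the 1 filled point left of 0 in each origin (-11.6 and -11.9 points).

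Induction of PGCLCs was compared within each origin. From ESCs, 6 of 42 parts rose and 1 fell, where 14.6% of all 136848 features were called. From pESCs, 2 rose and 1 fell, where 9.66% were called. Most called features rose: 13.7% of all features were called higher and 0.899% lower in the ESC origin, and 8.91% and 0.746% in the pESC origin. The median feature shifted by 0.26 and 0.17 in log2 odds.

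Zfp57 exons rose most in both origins. The means went from 7.35% to 58.8% in the ESC origin (4.04 in log2 odds, SE 0.334, adjusted p = 0.000262). In the pESC origin they went from 7.62% to 49.7% (3.42 in log2 odds, SE 0.334, adjusted p = 0.000729). The lowest PGCLC library, at 48.9%, lay far above the highest stem cell library, at 9.45%. The mean level of all features common to the 12 libraries was 23.6% in both stem cell groups, and among PGCLCs 29.5% (ESC origin) and 27.4% (pESC origin). The Zfp57 promoter held between 1.04% and 2.90% in the same 8 libraries.

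The Dnmt3b promoter went the other way. It stood at 13.6% and 12.7% in ESCs and 14.3% and 16.3% in pESCs, and after induction at 1.86% and 1.23% (ESC origin), or 3.97% and 2.75% (pESC origin). The falls were 11.6 and 11.9 points, with no overlap of libraries (-2.66 and -2.10 in log2 odds, SE 0.243, adjusted p = 0.000382 and 0.00145). It was the only member part called lower in either origin. In the pESC origin the Tet1 3′ UTR had a difference of -12.2 points and did not pass the test (adjusted p = 0.704). The shore upstream, chr2:153647286-153649286, carried higher levels than the island beside it. It stood at 40.2% and 25.3% in ESCs, at 32.1% and 34.5% in pESCs and at 18.2% and 12.5% in pESC-PGCLCs. In PGCs it was 41.7% and 35.1% at E9.5, then 24.1% and 16.7% at E12.5. ESC-PGCLCs had no level for it, so it entered no test with PGCLCs. The ESC-PGCLC promoter levels (1.86% and 1.23%) were close to those of the start island there (2.18% and 1.63%). The promoter definition and the levels of single CpGs are not given. A fall at the same CpGs in ESCs and ESC-PGCLCs was therefore not tested. The pESC-PGCLC libraries lay under both pESC libraries there, while the start island stayed between 1.31% and 2.18% in all 12 libraries. The shore also covers part of Dnmt3bos, a transcript on the opposite strand.

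Other members rose on induction in their gene bodies. Uhrf1 introns rose in both origins, from 14.8% and 14.2% to 30.4% and 31.6%, and from 15.0% and 18.2% to 32.2% and 29.4% (adjusted p = 0.00409 and 0.0124). In the ESC origin Tet1 exons rose from a mean of 32.7% to 56.8%, Dnmt1 exons from 37.9% to 51.6%, Dnmt1 introns from 29.2% to 40.5% and Dnmt3b introns from 8.19% to 19.0%. In the pESC origin the same parts of Tet1 and Dnmt1 had differences of 14.3, 5.94 and 7.20 points and did not pass the test. None of these passed the test of a difference between origins. Centring library medians moved the median feature to -11.5 points in the ESC origin and -9.47 in the pESC origin. On that scale 14 of 42 parts were called from ESCs (1 higher, 13 lower), against 52.1% of all features (5.2% higher and 46.9% lower). From pESCs 8 were called (1 higher, 7 lower), against 33.3% (4.34% higher and 28.9% lower). Zfp57 exons and the Dnmt3b promoter were the 2 parts called in the same direction on both scales in both origins. No setting limited the Dnmt3b promoter to CpGs measured in every library, and its upstream shore had no level in ESC-PGCLCs. The count of 7 in the ESC origin depended on the ESC library left out: it was 14 without replicate 1 and 8 without replicate 2. The Dnmt1 exon and intron calls were lost without either ESC-PGCLC library, and the Uhrf1 intron call in the pESC origin without pESC replicate 1 or either pESC-PGCLC library.

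**Figure D4:**
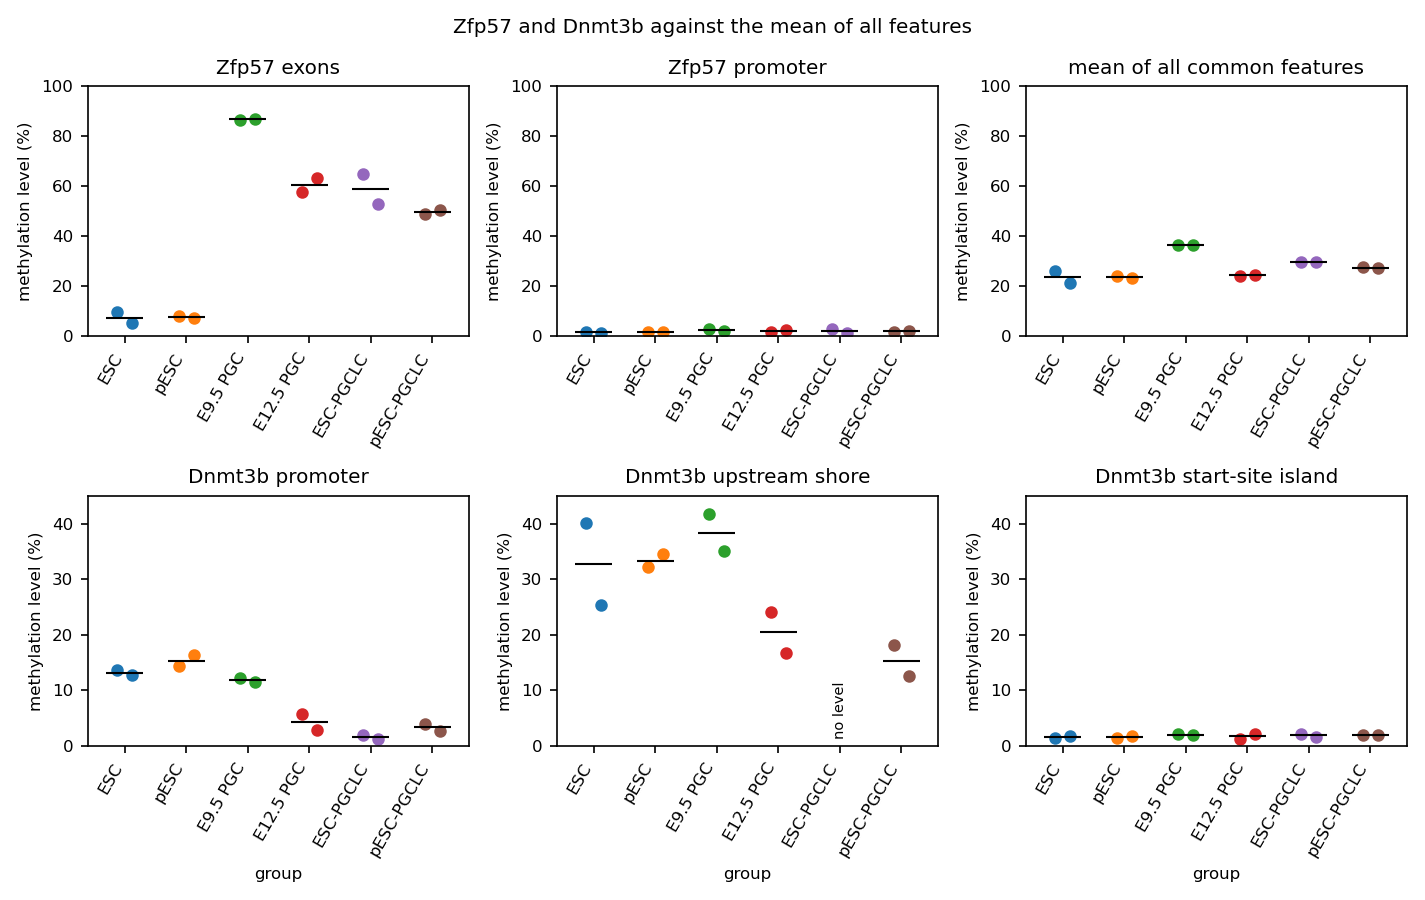
Methylation level (percent, vertical axis) in the 6 groups for Zfp57 exons and promoter, the mean of all features common to the 12 libraries, and the Dnmt3b promoter, upstream shore and start island; points are libraries and lines are means of 2. Zfp57 exons move from 7.35% in ESCs to 58.8% in ESC-PGCLCs while the Dnmt3b promoter moves from 13.2% to 1.55%. The shore has no level in ESC-PGCLCs.

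The remaining comparisons asked whether parthenogenetic origin left a difference at these genes. Between pESCs and ESCs, 0 of 43 member parts were called by limma, and 0 had an unadjusted p under 0.05. Over all 148012 features tested, 0% were called and 1.39% had an unadjusted p under 0.05. The differences ran from -3.04 points in the Tet3 3′ UTR to 4.62 points in Tet1 exons. The group libraries did not overlap in 11 of the 43 parts (10 higher in pESCs), against 15.7% of all features (8.94% higher in pESCs). All of these differences were under the minimum of 10 points.

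Between pESC-PGCLCs and ESC-PGCLCs, 0 of 42 parts were called by limma, with 8 at an unadjusted p under 0.05, while 0.0948% of all features were called and 19.4% had such a p. The mean was lower in pESC-PGCLCs in 35 of the 42 parts, and in 26 parts the libraries did not overlap, 25 of them lower in pESC-PGCLCs; among all features 51.4% did not overlap and 42.2% did so with pESC-PGCLCs lower. Zfp57 exons were 64.7% and 52.9% against 48.9% and 50.4% (adjusted p = 0.293). Tet3 exons were 64.3% and 64.9% against 58.5% and 58.7% (adjusted p = 0.17). The Dnmt3b promoter was the 1 non-overlapping part that was higher in pESC-PGCLCs. Its upstream shore stood at 18.2% and 12.5% in pESC-PGCLCs and had no level in ESC-PGCLCs. A difference at the same CpGs was therefore not tested.

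The interaction of origin and induction, which tests whether the induction differences of the 2 origins differ, called 0 of 42 parts by limma. None had an unadjusted p under 0.05, where 0.0365% of all features were called and 2.96% had such a p. The interaction was -9.44 points for Zfp57 exons and -0.324 points for the Dnmt3b promoter. For Uhrf1 introns, Tet1 exons, Dnmt1 exons and Dnmt1 introns it was -2.27, -9.76, -7.78 and -4.1 points.

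Other genes of the pathway were read from a list of 27, such as Uhrf2, Hells, Trim28, Dppa3, Setdb1, Ehmt1, Ehmt2, Mbd4, Parp1 and Prdm14. Of these, 25 had a level. Of their 85 parts tested, 30 fell and none rose between E9.5 and E12.5 PGCs, with a median change of -3.23 points. That is 35.3% of the parts, against 49.6% of all features, whose median change was -11.5 points. Dppa3, a maternal factor that protects methylation in the zygote, fell most in its introns and promoter. Its introns went from 68.0% and 68.2% to 31.7% and 34.5%, and its promoter from 67.1% and 69.8% to 32.4% and 35.0%. The 3′ UTR of Ehmt1, a histone H3 lysine methyltransferase, went from 93.9% and 92.8% to 53.7% and 63.1%. Against E9.5 PGCs, 21 parts were lower in ESC-PGCLCs and 28 parts for the pESC origin, which is 24.7% and 32.9% of the parts against 29.6% and 40.2% of all features. Against E12.5 PGCs 8 and 1 were higher, or 9.41% and 1.18% against 22.2% and 6.81%. On induction 16 of 86 parts rose in the ESC origin and 14 in the pESC origin, and no part was called lower. These are 18.6% and 16.3% of the parts, where 13.7% and 8.91% of all features were called higher. The largest rises in the ESC origin were in the 3′ UTR of Ehmt2, partner of Ehmt1, from 7.72% and 3.57% to 62.8% and 60.9%, and in Apobec1, a cytidine deaminase. Apobec1 exons rose from 4.84% and 8.0% to 52.8% and 52.5%, and its 5′ UTR from 3.89% and 7.55% to 50.0% and 50.5%. No part of the list was called between pESCs and ESCs, between the PGCLC groups or in the interaction. In these, 3 of 87, 17 of 85 and 5 of 86 had an unadjusted p under 0.05 (limma), against 1.39%, 19.4% and 2.96% of all features.

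The exon values most like those of Zfp57 over the 12 libraries, by mean absolute difference among 19001 exon values, belonged to Ctu1 (2.15 points), Gm5279 (3.14 points) and Gm12335 (3.14 points). Ctu1, a tRNA modification enzyme, had exon means of 86.2% at E9.5 and 55.4% at E12.5, of 59.4% in ESC-PGCLCs against 6.96% in ESCs, and of 50.6% in pESC-PGCLCs against 7.74% in pESCs. These means follow the same order as those of Zfp57 except for the places of E12.5 PGCs and ESC-PGCLCs.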

How the data were processed

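RRBS was done on 12 mouse libraries, 2 in each of 6 groups. Per the labels and the study's methods, the authors cut DNA with MspI, spiked in lambda DNA, aligned reads with Bismark 0.16.3 and Bowtie2 to mm10, and deposited 1 fraction for each feature and library: methylated CG calls over all CG calls, corrected for non-conversion. Their promoter definition and coverage minimum are not given in the sources used here, and the files hold no counts, so the depth behind a level is unknown.

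Levels of the 10 members were taken by Ensembl identifier and shown in percent. Differences were tested with limma 3.58.1 (R 4.3.3; lmFit and eBayes, two-sided) on log2((level + 0.01) / (1 - level + 0.01)), and p-values were adjusted by the Benjamini-Hochberg method across every feature of the fit. A part was called at an adjusted p under 0.05 and a difference of at least 10 points. One fit held ESCs and pESCs, another the PGCs and PGCLCs, and the last the stem cells and PGCLCs with the interaction, each on features with a level in all of its libraries. Comparisons within a fit share groups. Alternatives were an offset of 0.1, untransformed levels, 1 fit of all 12 libraries, a replicate block, leaving out each library, a level in at least 1 library per group, no minimum difference, and library medians centred, which does not set the median difference of all features to 0.

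Gene spans are from GENCODE M21 and sequences from RefSeq GRCm38.p6. Islands were those overlapping a member's span with 2000 bases upstream. Island starts in the files count from 0 and are given from 1. All members were named. Other pathway genes were named with values where called in a comparison of origins, or among the 3 largest called differences of E12.5 against E9.5 PGCs and of ESC-PGCLCs against ESCs. For the part with the widest range of group means, the 3 most alike genes were named. The members, lists and tests were chosen with earlier results of these data known.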

Additional observations from a re-analysis of the deposited data

Results flagged for a closer look

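The differences of Dnmt3a exons on induction had opposite signs in the 2 origins, and neither passed the test. In the ESC origin the mean was 5.39 points higher in PGCLCs (46.7% and 41.0% against 49.8% and 48.6%). In the pESC origin the difference was -2.87 points (48.9% and 46.8% against 43.5% and 46.5%). Libraries overlapped in neither origin, but this held for 51.6% of all features in the ESC origin and 55.2% in the pESC origin. The interaction was -8.26 points and did not pass the test (limma, adjusted p = 1).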

How the results depend on the processing

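Counts of called member parts held within 1.5 times under the offset of 0.1, untransformed levels and the minimum of 1 library per group. Without the minimum difference, 23 parts were called for ESC-PGCLCs against E9.5 PGCs, 15 for ESC-PGCLCs against E12.5 PGCs and 5 for pESC-PGCLCs against E12.5 PGCs. The fit of all 12 libraries called 2 and 0 in the last 2 of these. Centring library medians called 2, 2 and 0 in these 3 comparisons, 14 for ESC-PGCLCs against ESCs and 8 for pESC-PGCLCs against pESCs. It also turned 11 called differences, each then under 10 points in size. For E12.5 against E9.5 PGCs they became 0.293 points in the Dnmt3b 3′ UTR, 0.071 in Dnmt3l introns, 1.89 in Tet3 introns, 4.92 in the Tet3 5′ UTR and 5.41 in the Tdg promoter. For pESC-PGCLCs against E9.5 PGCs they became 1.05 in Dnmt1 introns, 1.33 in Dnmt3a introns, 1.19 in Tet3 introns and 1.92 in the Tet3 5′ UTR. For ESC-PGCLCs against ESCs they became -1.47 in Dnmt1 introns and -1.96 in Dnmt3b introns. The median feature also passed 0 in these 3 comparisons, standing at 4.48, 4.58 and -11.5 points after centring.

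Leaving out 1 library gave 19 to 21 calls for E12.5 against E9.5 PGCs, 11 to 16 for ESC-PGCLCs and 15 to 19 for pESC-PGCLCs against E9.5 PGCs, 5 to 8 and 0 to 0 against E12.5 PGCs, 5 to 14 for ESC-PGCLCs against ESCs and 2 to 3 for pESC-PGCLCs against pESCs. The comparisons of origin and the interaction stayed at 0 calls under every alternative. With 1 library left in a group, its spread is assumed to be that of the other groups.

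When the replicate number entered as a block, counts were 21, 14, 19, 7, 1, 7 and 3 in that order, and 0 in the comparisons of origin and the interaction. The block ended 2 calls, the Dnmt3b 3′ UTR in ESC-PGCLCs against E12.5 PGCs and Dnmt1 introns in ESC-PGCLCs against ESCs. The labels do not say that numbers pair the libraries; deviations of same-numbered libraries correlated at 0.518 between ESCs and pESCs and at -0.0602 to 0.183 between other groups.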

Other observations

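The Uhrf1 3′ UTR had a level in pESC replicate 1 alone, 26.7%. The Zfp57 5′ UTR ranged from 0% in 4 libraries to 15.6% in E9.5 PGC replicate 1, and was 0% in E9.5 PGC replicate 2.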
